A study of Mus musculus with 8 samples.

Results

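Coch, Spp1, Tmprss6, Mrc2, Lim2, Pax9, Tmem273 and 2900026A02Rik are 8 of the 32285 genes counted in single bone marrow T cells of a mouse model of Runx1::Runx1t1 leukemia. They were chosen by symbol because earlier results of the same data had shown them to be high in expanded cytotoxic Cd8 T cells, although most of them are known from other tissues. Their levels in Cd8 T cells, which led to the choice, are therefore given as a description without a test, and tests were made only in Cd4 T cells. Single-cell RNA-seq and single-cell TCR-seq had been made from 2 pools of a Runx1::Runx1t1 group and 2 pools of a control group, all C57BL/6 mice. The Runx1::Runx1t1 mice carried the fusion knock-in allele Runx1Runx1t1/+ together with Mx1-Cre, an interferon-inducible Cre that is active in hematopoietic cells but also in liver and other tissues. The control mice were sex-matched littermates with the same Runx1Runx1t1/+ allele but without Mx1-Cre, although their genotype label reads WT. Control mice were given Poly(I:C) as well: in both groups there were 4 doses of 5 mg/kg, and marrow was taken 4 weeks after induction. Each pool mixed the marrow of 2 mice, so cells could not be assigned to a mouse. The sorted cells were T cells enriched by negative selection and gated as mCherry- CD3+ DAPI-, so cells that carried the mCherry reporter were not sampled.

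Activated Cd8 T cells express Pdcd1, an inhibitory receptor that is kept under continued antigen signaling, and effector-memory cells express Gzmk, which encodes a granule protease. A clonotype is the set of T cells that carry one rearranged TCR alpha and beta pair, and a large clonotype is read as the progeny of an expanded T cell. Among the 8 genes, Coch encodes cochlin, a secreted matrix protein of the inner ear with an LCCL domain and von Willebrand factor A domains. Spp1 encodes osteopontin, a secreted phosphoprotein of bone matrix that activated T cells and macrophages also make and that binds integrins and Cd44. Tmprss6 encodes a liver membrane serine protease that cleaves hemojuvelin and thereby lowers hepcidin, and Mrc2 encodes a collagen-binding endocytic receptor of fibroblasts. Lim2 encodes a membrane protein of lens fibre cells. Pax9 encodes a paired-box transcription factor of the pharyngeal pouches, teeth and palate. Tmem273 encodes a transmembrane protein and 2900026A02Rik a protein with little described function.

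All 8 genes were annotated as protein coding in GRCm38. Coch lies on chr12:51593341-51605771 and Spp1 on chr5:104435118-104441050, both on the plus strand. Tmprss6 occupies chr15:78439667-78468634 on the minus strand. Its 3′ end faces that of Kctd17 on the other strand, 0.363 kb away, and Il2rb lies upstream of it on the same strand at 10.6 kb. Mrc2 occupies chr11:105292643-105351139 and Tmem273 chr14:32785963-32817984, both on the plus strand. Lim2 is annotated on the plus strand at chr7:43427670-43435996, which ends 1.076 kb before Nkg7, a granule gene of cytotoxic cells, on the same strand. The identifier of Lim2 in the deposited table, ENSMUSG00000118560, differed from that in the annotation used for the position, so the position was taken by symbol. Pax9 at chr12:56691767-56712822 is overlapped by Slc25a21 on the opposite strand. 2900026A02Rik spans chr5:113086323-113221236 on the minus strand and is overlapped by 5 noncoding or unclassified transcripts, while 1 unclassified transcript overlaps Spp1. Levels of Pax9, Spp1, Lim2 and 2900026A02Rik could therefore hold molecules of an overlapping or adjoining gene, which was not tested.

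The 4 gene expression libraries held between 90958101 and 102883449 UMIs (unique molecular identifiers, each counting 1 captured RNA molecule), with a median of 6239 to 6368 UMIs per barcode. After filters, 12764 to 13795 cells were kept per pool. Between 256 and 306 barcodes were shared by any pair of libraries. Cd8 T cells, with a UMI of a Cd3 gene and of Cd8a or Cd8b1 and none of Cd4, numbered 6833 and 7230 in Runx1::Runx1t1 replicates 1 and 2 and 6005 and 6788 in control replicates 1 and 2. Cells with a UMI of both Pdcd1 and Gzmk, called Pdcd1+ Gzmk+ here, were 481 and 2004 of them in the Runx1::Runx1t1 pools and 57 and 63 in the control pools. A cell without a UMI of a gene can still express it at this depth.

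The clonotypes on which the levels below turn are shown by the nucleotide CDR3 of their alpha and beta chains, 5′ to 3′. The largest Cd8 clonotype is clonotype 1 of Runx1::Runx1t1 replicate 2. Clonotype 2 of replicate 1 had the highest Coch level, and clonotype 2 of replicate 2 had no Coch UMI. Clonotypes 9 and 16 of replicate 2 are shown because capitals mark a CDR3 that is found in more than one of the clonotypes with at least 10 cells.
Replicate 2 clonotype 1, TRAV6-6 and TRAJ48: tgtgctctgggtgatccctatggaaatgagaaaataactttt
Replicate 2 clonotype 1, TRBV1 and TRBJ2-7: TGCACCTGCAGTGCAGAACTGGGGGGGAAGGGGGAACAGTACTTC
Replicate 2 clonotype 9, TRAV6N-6: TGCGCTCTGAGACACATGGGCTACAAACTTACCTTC
Replicate 2 clonotype 9, TRBV1: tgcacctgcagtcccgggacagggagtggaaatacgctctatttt
Replicate 2 clonotype 16, TRAV6N-6: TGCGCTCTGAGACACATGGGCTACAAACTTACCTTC
Replicate 2 clonotype 16, TRBV1: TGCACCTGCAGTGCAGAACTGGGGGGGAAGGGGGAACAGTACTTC
Replicate 2 clonotype 2, TRAV8D-2 and TRAJ5: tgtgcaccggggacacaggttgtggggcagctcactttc
Replicate 2 clonotype 2, TRBV26 and TRBJ1-5: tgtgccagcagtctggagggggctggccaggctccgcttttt
Replicate 1 clonotype 2, TRAV7-4 and TRAJ18: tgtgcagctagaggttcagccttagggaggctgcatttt
Replicate 1 clonotype 2, TRBV31 and TRBJ2-3: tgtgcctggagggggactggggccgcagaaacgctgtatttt

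In Cd8 T cells, all 8 genes had a higher level in both Runx1::Runx1t1 pools than in both control pools, a property that 34.1% of 12947 genes with at least 49 Cd8 UMIs shared. Between 90.7% (Tmem273) and 99.8% (Mrc2) of the UMIs that a gene had in Cd8 T cells came from the Runx1::Runx1t1 pools. The level of each gene, averaged over both Runx1::Runx1t1 pools, was highest in Pdcd1+ Gzmk+ cells, which 42.4% of those genes also showed. Since the genes had been picked for this pattern, nothing is read from either count. With each clonotype counted once, as a mean of clonotype levels, 7 of the 8 genes were still higher in both Runx1::Runx1t1 pools, and all 8 differences of the group means were smaller. The difference of Coch went from 21.8 to 3.24 CPM, that of Tmprss6 from 13.8 to 0.539, and that of Tmem273 turned from 7.02 to -0.291 CPM. Pdcd1+ Gzmk+ cells made up 17.7% of the Cd8 T cells of these pools but held between 59.6% (Pax9) and 83.7% (Mrc2) of the UMIs.

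Of the genes for secreted proteins, Coch had a level of 14.5 and 29.4 CPM (UMIs of the gene per 1000000 UMIs of the summed cells) in Cd8 T cells of the Runx1::Runx1t1 pools. In control replicate 1 it had 0.161 CPM from 7 UMIs, and in control replicate 2 it had 0 UMIs in 6788 cells. In Pdcd1+ Gzmk+ cells the Coch level was 186 (95% exact Poisson interval 172 to 202) and 105 (99.4 to 110.2) CPM in Runx1::Runx1t1 replicates 1 and 2. It was 0.304 and 0.525 CPM in cells without a UMI of Pdcd1 or Gzmk. Cells with only one of the pair lay in between, at 21.2 and 48.9 CPM with Pdcd1 alone and 21.2 and 19.3 with Gzmk alone. All 7 UMIs of Coch in the control pools lay in Pdcd1+ Gzmk+ cells of replicate 1, at 15.8 CPM over 57 cells. The intervals here and below cover counting error only.

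Spp1 reached 106 and 49.6 CPM in Pdcd1+ Gzmk+ cells of the Runx1::Runx1t1 pools, against 1.22 and 0.495 in cells with neither gene. With Pdcd1 alone the level was 54.2 and 7.10 CPM and with Gzmk alone 8.36 and 18.7, so these classes had opposite orders in the pools. No UMI of Spp1 was found in the 57 and 63 Pdcd1+ Gzmk+ cells of the control pools. Few cells carried the osteopontin molecules: the 334 UMIs in Pdcd1+ Gzmk+ cells of replicate 1 lay in 37 of 481 cells, whereas the 585 UMIs of Coch lay in 175 cells.

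The protease gene Tmprss6 and the collagen receptor gene Mrc2 were higher in replicate 2 than in replicate 1. In Pdcd1+ Gzmk+ cells Tmprss6 had 19.1 CPM in replicate 1 and 89.9 in replicate 2, and cells with neither Pdcd1 nor Gzmk had 0.0702 and 0.437. The control pools held 1 and 4 UMIs of Tmprss6 in all, each of them in Pdcd1+ Gzmk+ cells. Mrc2 had 26.8 and 46.3 CPM in Pdcd1+ Gzmk+ cells against 0.0702 and 0.437 in cells with neither gene, and 1 UMI in each control pool. The largest clonotype, described below, gave 864 of the 2004 Pdcd1+ Gzmk+ cells of replicate 2. It held 428 of the 610 such cells with a UMI of Tmprss6 and 273 of the 452 with one of Mrc2.

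Lim2 and Pax9 were rare. Lim2 had 5.10 (2.91 to 8.28) and 5.51 (4.34 to 6.88) CPM in Pdcd1+ Gzmk+ cells, from 16 and 77 UMIs, and 0 and 1 UMI in the cells with neither gene. Pax9 had 4 and 24 UMIs there, 1.27 (0.347 to 3.26) and 1.72 (1.10 to 2.55) CPM, and 7 and 8 UMIs in cells with Gzmk alone. Each control pool held 1 UMI of Lim2 and 1 of Pax9. The neighbouring Nkg7 had 4802 and 5692 CPM in Pdcd1+ Gzmk+ cells and 1145 and 1099 in cells with neither gene, so it moved with Lim2, and whether a share of the Lim2 molecules came from it was not tested.

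Tmem273 and 2900026A02Rik also had a level in control cells. Tmem273 had 1.51 and 14.5 CPM in Cd8 T cells of the Runx1::Runx1t1 pools and 0.761 and 1.25 in the control pools, so the gap between replicate 1 and the controls was small. In Pdcd1+ Gzmk+ cells it had 14.98 and 47.3 CPM. Cells with neither Pdcd1 nor Gzmk had 0.468 and 0.991 CPM in the Runx1::Runx1t1 pools and 0.742 and 1.37 in the control pools, so these 4 values overlapped. 2900026A02Rik had 55.5 and 98.6 CPM in Pdcd1+ Gzmk+ cells, against 1.38 and 2.30 in cells with neither gene. The few Pdcd1+ Gzmk+ cells of the control pools had 9.02 and 18.9 CPM of 2900026A02Rik, from 4 and 7 UMIs, above the 0.947 and 1.42 of control cells with neither gene.

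**Figure D1:**
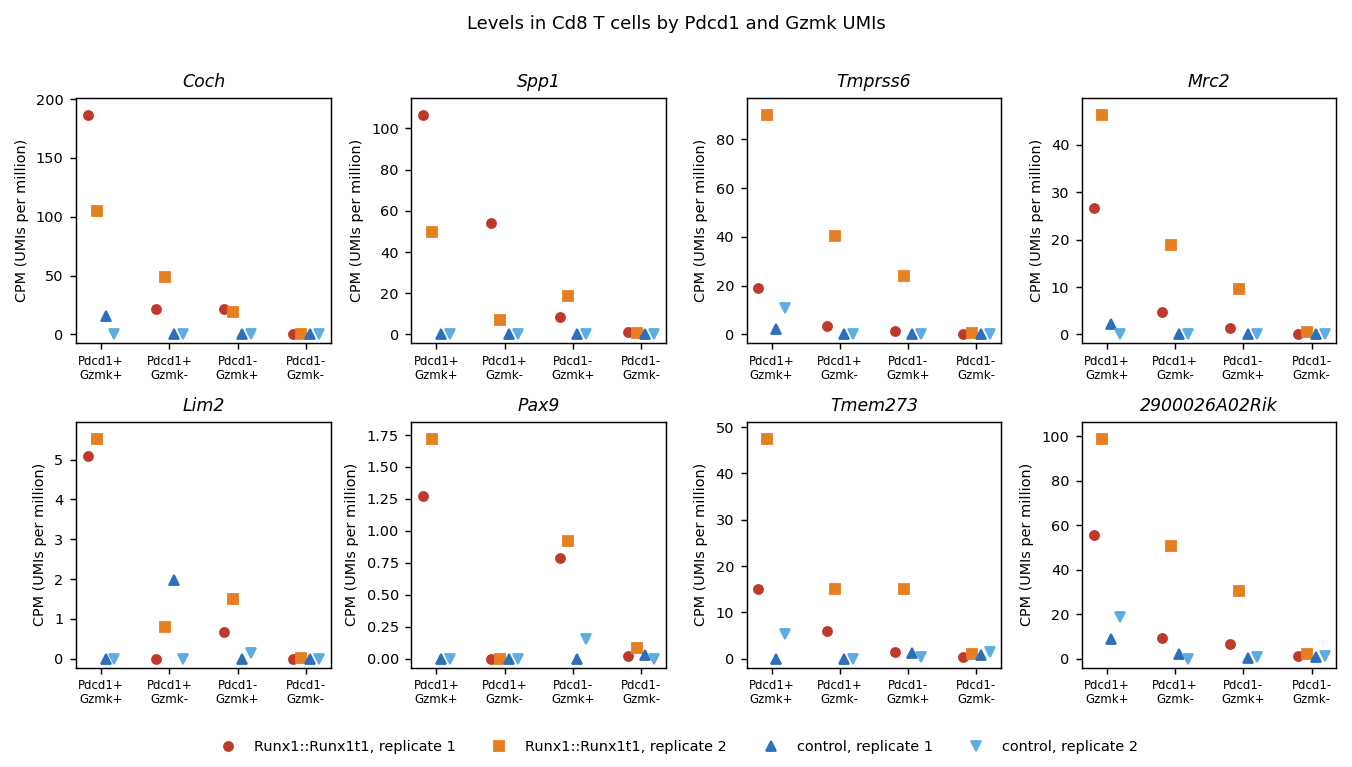
Level of each of the 8 genes (CPM, linear axes that differ between panels) in Cd8 T cells split by a UMI of Pdcd1 and of Gzmk, with 1 point per pool. In both Runx1::Runx1t1 pools Coch is highest in Pdcd1+ Gzmk+ cells, at 186 and 105 CPM, while most control points lie at or near 0.

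As a background that includes free RNA, the Cd8 T cells with no UMI of Pdcd1 or Gzmk were used. A UMI of Coch was found in 36.4% (95% Wilson interval 32.2 to 40.8) and 25.0% (23.2 to 27.0) of Pdcd1+ Gzmk+ cells of the Runx1::Runx1t1 pools. In cells with neither gene it was found in 0.160% (8 of 5000 cells) and 0.372% (14 of 3759 cells). The cells with neither gene were deeper, with a median of 8108.5 and 8596 UMIs against 5791 and 6123. With every cell thinned to 2000 UMIs the shares in Pdcd1+ Gzmk+ cells were 21.6% and 13.0% for Coch and 8.47% and 18.9% for 2900026A02Rik. The thinning left out 139 and 187 shallower Cd8 T cells of the Runx1::Runx1t1 pools. Pax9 was found in 0.832% and 1.05% of Pdcd1+ Gzmk+ cells and in 1 and 2 of the cells with neither gene.

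The label of expanded cytotoxic cells was checked against markers. The summed level of 7 cytotoxic markers was 50797 and 51395 CPM in Pdcd1+ Gzmk+ Cd8 T cells of the Runx1::Runx1t1 pools and 5249 and 3809 in cells with neither gene. Most of the sum was the chemokine gene Ccl5, at 42435 and 41649 CPM against 3753 and 2435 in cells with neither gene. Gzmk, which set the gate, is also one of the 7. Exhaustion markers were at 2250.5 and 2494 CPM against 91.4 and 94.6, with Pdcd1 among them. Markers of other marrow cells were summed in the same cells. The 5 stromal markers had 0 and 1.001 CPM in Pdcd1+ Gzmk+ cells, with Lepr at 0 in both pools, and 0.351 and 0.699 in cells with neither gene. The 8 myeloid markers had 13.1 and 12.7 CPM against 17.8 and 36.8 in cells with neither gene, and the 4 B cell markers 2.55 and 2.43 against 12.9 and 13.3. The 4 erythroid markers had 2.55 and 23.5 CPM in Pdcd1+ Gzmk+ cells and 2.41 and 1.78 in cells with neither gene, so they were higher in Pdcd1+ Gzmk+ cells of replicate 2. The 2 progenitor markers had 0.956 and 9.65 CPM against 8.44 and 6.06. The part of these cells in the levels of the 8 genes was not tested.

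All 8 genes had a higher level in clonotypes of at least 10 Cd8 T cells than in clonotypes of 1 cell in both Runx1::Runx1t1 pools, which 59.4% of the 12947 genes also had, and nothing is read from this count. Clonotypes were called from 5507 and 5542 Cd8 T cells with both chains in these pools. In replicate 1 the Coch level was higher in each larger size class, from 0.478 CPM in clonotypes of 1 cell to 15.2 in those of 2 to 9, 64.9 in those of 10 to 49 and 235 in those of at least 50. In replicate 2 the same classes had 1.81, 53.4, 142 and 77.8 CPM, so the largest size class was below the next. Spp1 in replicate 2 went from 3.35 CPM in clonotypes of 1 cell to 48.8 and 99.4 and was back at 16.2 in clonotypes of at least 50 cells. In replicate 1 it ended at 137 CPM. Tmprss6, in contrast, had 0.239, 18.9, 27.3 and 122 CPM over these classes in replicate 2, and 0.0265, 0.524, 1.41 and 27.5 in replicate 1. In replicate 1, clonotypes 1 to 5 made up the class of at least 50 cells and differed widely. Clonotype 1 held 61 UMIs of Tmprss6, clonotype 2 held 1 and the others 0. Of Spp1, clonotype 2 held 264 UMIs, clonotype 1 held 23, clonotype 4 held 21 and the others 0. In order of rank they held 172, 312, 1, 45 and 0 UMIs of Coch.

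Control pools had no clonotype of at least 50 cells, and 50 and 234 Cd8 T cells in clonotypes of 10 to 49. In these cells the controls had 0 UMIs of Coch, Spp1, Tmprss6, Mrc2, Lim2 and Tmem273. Pax9 had 1 UMI and 2900026A02Rik 3 UMIs in them. The 7 Coch UMIs of control replicate 1 lay in clonotypes of 2 to 9 cells.

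**Figure D2:**
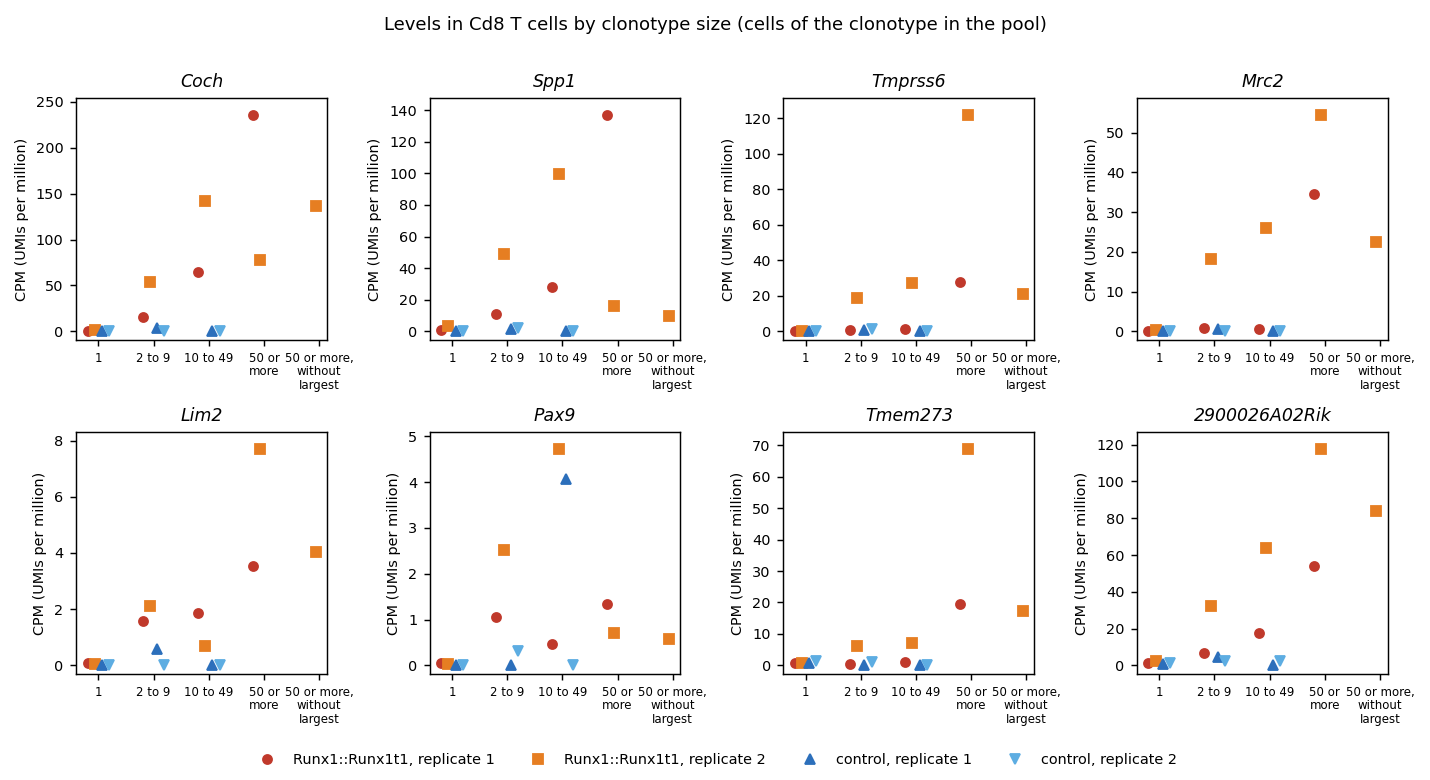
Level of each gene (CPM, linear axes that differ between panels) in Cd8 T cells grouped by the size of their clonotype, with 1 point per pool; the last group, given for Runx1::Runx1t1 replicate 2 only, leaves out the largest clonotype. Without it the Coch level of clonotypes of at least 50 cells goes from 77.8 to 136 CPM, and that of Tmprss6 from 122 to 21.1.

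The largest clonotype had 1093 Cd8 T cells, 15.1% of the Cd8 T cells of Runx1::Runx1t1 replicate 2, and its pair of chains was found in 0 cells of the other pools. In it 79.0% of the cells were Pdcd1+ Gzmk+ and 1.10% had neither gene. The genes differed in how much of their UMIs it held. It gave 73.8% of the Tmprss6 UMIs of that pool's Cd8 T cells, 73.1% of the Tmem273 UMIs, 67.4% of the Lim2 UMIs, 59.7% of the Mrc2 UMIs and 48.8% of the 2900026A02Rik UMIs. Of the Coch, Spp1 and Pax9 UMIs it gave 17.3%, 14.4% and 14.3%, close to its share of the cells. Without it the level in Cd8 T cells of replicate 2 went from 26.3 to 7.75 CPM for Tmprss6, from 14.5 to 4.40 for Tmem273 and from 13.2 to 5.98 for Mrc2. For Coch it went from 29.4 to 27.3 and for Spp1 from 15.1 to 14.6. Each of the 8 genes in replicate 2 stayed above both control pools without the largest clonotype. For Coch and Spp1 another clonotype weighed more: clonotype 2 of replicate 1, with 102 cells, held 312 and 264 UMIs of them. All Runx1::Runx1t1 clonotypes of at least 10 Cd8 T cells together held 1858 and 822. In replicate 1, clonotype 1, with 111 cells, held 61 UMIs of Tmprss6, 66 of Mrc2 and 42 of Tmem273. Cd8 T cells of both Runx1::Runx1t1 pools held 1612, 873 and 931 UMIs of these genes. Of those, replicate 2 held 1532, 770 and 847. Levels of replicate 1 without its clonotype 1 or 2 are not given.

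Within the largest clonotype the classes of cells differed less than across all Cd8 T cells. Tmprss6 had 184 CPM in its 864 Pdcd1+ Gzmk+ cells and 151 in its 184 cells with Gzmk alone, and Tmem273 had 95.9 and 102. Cells with Gzmk alone outside this clonotype had 7.02 CPM of Tmprss6 and 3.51 of Tmem273 in the same pool. Coch was at 50.5 CPM in Pdcd1+ Gzmk+ cells of the largest clonotype and 28.3 in its cells with Gzmk alone, against 137 and 18.1 in the other cells. For Tmprss6 and Tmem273, cells with Gzmk alone were thus nearer to the Pdcd1+ Gzmk+ cells of their own clonotype than to other cells with Gzmk alone.

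Clonotypes of at least 10 Cd8 T cells numbered 24 and 25 in the Runx1::Runx1t1 pools and 4 and 15 in the control pools. In 28 of the 49 Runx1::Runx1t1 clonotypes at least 50% of the cells had a Pdcd1 UMI. A UMI of Coch was found in 26 of these 28 and in 4 of the other 21. For 2900026A02Rik the counts were 28 of 28 and 5 of 21. Of the 19 control clonotypes only 1, of 11 cells, was mostly Pdcd1+, and it had no UMI of either gene. The other 18 had a Coch UMI in 0 clonotypes and a 2900026A02Rik UMI in 1, so the control pools held almost no clonotype like the 28. Spp1 was found in 20, Mrc2 in 18, Tmem273 in 15 and Lim2 in 13 of the 28, and of the other 21 clonotypes only Lim2, in 1, was found among these 4 genes. The 28 clonotypes had a UMI of between 2 and 8 of the 8 genes each, and the other 21 of between 0 and 2. The clonotypes held between 39216 and 6421991 UMIs of all genes, so a gene can be missed in a small one. How many of all genes have such counts over clonotypes was not computed. Since the 8 genes had been picked for this pattern, nothing is read from these counts.

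High-ranking clonotypes did not carry the same genes. Clonotype 2 of replicate 1, with 102 cells, had 599 (534 to 669) CPM of Coch and 506 of Spp1, but 1.92 of Tmprss6 and 0 of Tmem273. Clonotype 1 of the same pool, with 111 cells, had 239.8 of Coch, 32.1 of Spp1, 85.0 of Tmprss6 and 58.5 of Tmem273. Both clonotypes were mostly Pdcd1+, at 67.6% and 80.2% of cells. In replicate 2, clonotype 4 had 149.9 CPM of Coch and 0 of Tmem273 in 121 cells, and clonotype 11 had 74.9 of Coch and 554 of Spp1 in 32 cells. The highest Spp1 level, 558 CPM, came from a clonotype of 11 cells in replicate 1. Some large clonotypes had little of these genes, and the part of clonotype size in the levels was not tested. Clonotype 2 of replicate 2 had 165 cells, of which 92.7% had Gzmk and 9.09% had Pdcd1. It had 0 UMIs of Coch, Spp1, Mrc2, Lim2, Pax9 and Tmem273. Clonotype 3 of replicate 1, with 74 cells and Pdcd1 in 1.35% of them, had 2.40 CPM of Coch and a UMI of none of the other 7 genes.

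Across the 49 clonotypes Tmprss6 and Mrc2 had the most similar levels, with a Spearman rho of 0.841, followed by Tmprss6 and Tmem273 at 0.771. Lim2 and Pax9 had 0.0413. Spp1 and Tmem273 had 0.345. These rho values are a description over clonotypes of different size and depth, and clonotypes of a pool share its library. With clonotype size itself rho lay between 0.117 (2900026A02Rik) and 0.385 (Lim2), and with the Pdcd1 level between 0.307 (Pax9) and 0.815 (Coch).

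**Figure D3:**
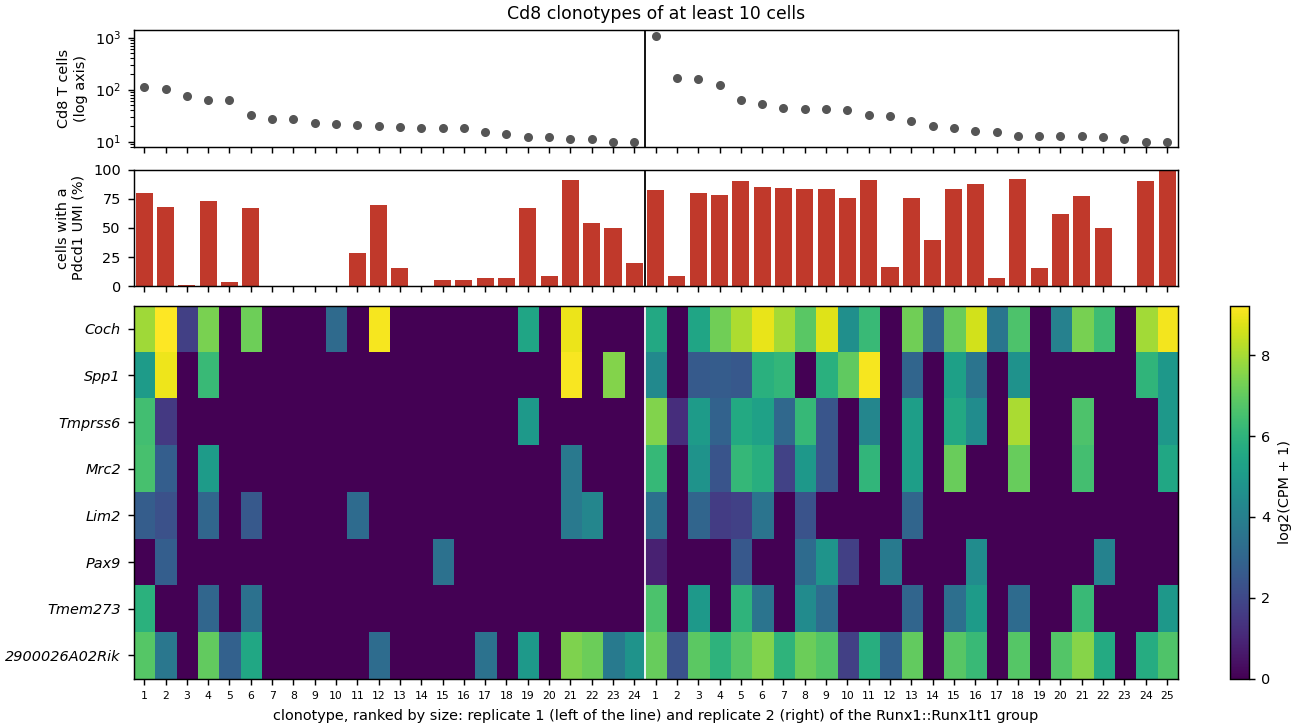
The 49 Cd8 clonotypes of at least 10 cells in the Runx1::Runx1t1 pools, in order of size within each pool, with their number of Cd8 T cells (points, log axis), the percent of their cells with a Pdcd1 UMI (bars) and the log2(CPM + 1) of the 8 genes. Clonotypes with few Pdcd1+ cells are dark in nearly all rows, and some clonotypes with a bright Coch cell, such as clonotype 2 of replicate 1 at 599 CPM, are at 0 for Tmem273.

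Some of these clonotypes are not independent. In the Runx1::Runx1t1 pools 4 of the 49 shared the CDR3 of a chain with a larger clonotype of the same pool and 1 with a clonotype of equal size, and 1 of the 19 control clonotypes shared one with a larger clonotype. Clonotypes 3 and 7 of replicate 1 shared the alpha CDR3, and 65 of the 74 cells of the first also held the beta CDR3 of the second. The beta CDR3 of the largest clonotype was found with the alpha CDR3 of clonotype 9 in the 16 cells of clonotype 16, and with that of clonotype 7 in the 10 cells of clonotype 24, as printed above for the first case. No cell of either held the alpha CDR3 of the largest clonotype. The beta CDR3 of the largest clonotype was also held by 10 of the 42 cells of clonotype 9 and 17 of the 44 cells of clonotype 7. Clonotypes 16 and 24 may therefore not be separate from clonotypes 9 and 7, which was not tested. Clonotypes 7, 9, 16 and 24 all used TRAV6N-6 with TRBV1 and had 254, 434, 388 and 246 CPM of Coch, against 46.2 in the largest clonotype. Without these 5, Coch was found in 23 of 25 mostly Pdcd1+ clonotypes and 4 of the other 19.

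In single Pdcd1+ Gzmk+ cells the genes were found together only in part. Of these cells, 43.9% in replicate 1 and 24.2% in replicate 2 had a UMI of none of the 8, and 1 and 3 cells had a UMI of 6. Among Pdcd1+ Gzmk+ cells of replicate 1, Spp1 was found in 13.1% of 175 cells with Coch and in 4.58% of cells without. Clonotype 2 of that pool had Coch in 70.6% and Spp1 in 19.6% of its 102 cells. The part of the mix of clonotypes in this gap was not tested. Within the largest clonotype, Spp1 was found in 9.46% of 148 cells with Coch and 5.87% of cells without, and Tmprss6 in 62.2% and 46.9%. Cells with Coch were deeper there, with a median of 6292 UMIs against 5820, and the part of depth in these gaps was not tested. Tmem273 was found in 38.5% of the cells with Coch and 37.8% of those without in the largest clonotype.

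Cd4 T cells, with a UMI of Cd4 and none of Cd8a or Cd8b1, were 2590 and 2439 in the Runx1::Runx1t1 pools and 1162 and 1079 in the control pools. In Pdcd1+ Gzmk+ Cd4 T cells Coch had 195 and 163 CPM in the Runx1::Runx1t1 pools and Spp1 had 545 and 330. In the same cells Tmprss6 had 0.504 and 4.11 CPM and Mrc2 had 1.01 and 4.43. Clonotypes of at least 50 Cd4 T cells had 249.8 and 259 CPM of Coch against 1.80 and 1.54 in clonotypes of 1 cell. Spp1 was already at 310.1 CPM in clonotypes of 2 to 9 cells in replicate 1, but at 31.2 in replicate 2. The control pools had 14 and 15 Pdcd1+ Gzmk+ Cd4 T cells, with 1 and 0 UMIs of Coch.

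The comparison of the groups asked whether the genes differed between Runx1::Runx1t1 and control Cd4 T cells. UMIs were summed per pool and compared by edgeR's quasi-likelihood test over 11640 genes, of which 246 (2.11%) passed an adjusted p of 0.05, 161 (1.38%) higher and 85 (0.730%) lower in Runx1::Runx1t1. Of the 8 genes, 4 had enough UMIs to be tested and 2 passed, Coch and Spp1. Pdcd1+ Gzmk+ cells made up 13.1% and 17.5% of the Cd4 T cells of the Runx1::Runx1t1 pools and 1.20% and 1.39% of those of the control pools, and the share of the group differences that this gives was not tested. Coch had 36.0 and 44.0 CPM in the Runx1::Runx1t1 pools and 1.83 and 1.42 in the control pools, a log2 fold change of 4.65 ± 0.20 (SE, n = 2 pools per group; edgeR adjusted p = 0.000606). Spp1 had 152 and 104 CPM against 14.3 and 7.97, a log2 fold change of 3.56 ± 0.27 (edgeR adjusted p = 0.00338). Few cells carried it: the 2246 Spp1 UMIs of Runx1::Runx1t1 replicate 1 lay in 129 of 2590 Cd4 T cells (4.98%). In Cd4 T cells with neither Pdcd1 nor Gzmk, Coch had 1.18 and 0.557 CPM against 0.226 and 0.227, from at most 11 UMIs a pool, and Spp1 had 35.3 and 5.57 against 7.67 and 0.453, so the Spp1 levels overlapped there. Over all Cd4 T cells the groups did not overlap for either gene, and no alternative setting ended either call. Tmem273 had 7.18 and 4.12 CPM in Runx1::Runx1t1 and 12.7 and 16.1 in control Cd4 T cells, a log2 fold change of -1.30 ± 0.29 that did not pass (edgeR adjusted p = 0.0809), although DESeq2 gave an adjusted p of 0.0273. 2900026A02Rik had 4.40 and 7.37 against 2.50 and 1.59 CPM and did not pass (edgeR adjusted p = 0.0961). The p-values rest on 2 pools per group.

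Gzmk+ were compared with Gzmk- Cd4 T cells within pools (the pool was a block in the fit, and Gzmk itself was left out). This tested 11152 genes, of which 1601 (14.4%) passed, 676 (6.06%) higher and 925 (8.29%) lower in Gzmk+ cells. All 4 tested genes passed, 3 higher and 1 lower. Coch had 124 and 99.96 CPM in Gzmk+ cells of the Runx1::Runx1t1 pools and 4.07 and 0.939 in their Gzmk- cells. The control pools had 1 and 0 UMIs of Coch in 66 and 102 Gzmk+ cells, below what 3 counts would give. Gzmk- cells of the control pools had 1.78 and 1.59 CPM of Coch, from 10 and 8 UMIs, against 2.71 and 0 in their Gzmk+ cells. These counts set no order in either control pool, as 3 counts in Gzmk+ cells would give 8.13 and 4.92 CPM. The log2 fold change of Coch was 4.94 ± 0.45 (edgeR adjusted p = 8.07e-05). Spp1 had 331 and 207 against 87.1 and 24.3 CPM in the Runx1::Runx1t1 pools. It had 19.0 against 14.0 in control replicate 1 and 3.28 against 8.54 in control replicate 2. Spp1 was thus higher in Gzmk+ cells in 3 of 4 pools (log2 fold change 2.12 ± 0.32, edgeR adjusted p = 0.0015). The Gzmk+ levels of the control pools came from only 7 and 2 UMIs. The rise of 2900026A02Rik by 1.58 ± 0.38 on the log2 scale passed (edgeR adjusted p = 0.0179) but was lost without either Runx1::Runx1t1 pool. With DESeq2 the adjusted p was 0.289 for Coch, 0.508 for Spp1 and 0.334 for 2900026A02Rik, so these calls depended on the tool.

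Pdcd1+ against Pdcd1- Cd4 T cells gave 1426 (12.9%) of 11065 genes, 649 (5.87%) higher and 777 (7.02%) lower in Pdcd1+ cells. Coch, which passed with a log2 fold change of 3.34 ± 0.17 (edgeR adjusted p = 3.55e-06), had 121 and 115 CPM in Pdcd1+ cells of the Runx1::Runx1t1 pools and 9.84 and 13.5 in Pdcd1- cells. In the control pools it had 7.77 and 9.32 CPM against 0.212 and 0.204, so it was higher in Pdcd1+ cells in 4 of 4 pools, from 10 and 7 UMIs in the controls. Spp1 had 488 and 269 against 48.7 and 33.5 CPM in the Runx1::Runx1t1 pools and 40.4 and 57.2 against 7.22 and 0.409 in the control pools, a log2 fold change of 3.17 ± 0.24 (edgeR adjusted p = 3.80e-05). 2900026A02Rik was higher by 1.73 ± 0.31 on the log2 scale (edgeR adjusted p = 0.00461). Without either Runx1::Runx1t1 pool this call was lost. Without the pool block the calls of Coch, Spp1 and Tmem273 were lost, with adjusted p from 0.0576 to 0.0758.

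Tmem273 went the other way in Cd4 T cells. It had 1.78 and 1.07 CPM in Gzmk+ cells of the Runx1::Runx1t1 pools and 9.15 and 6.46 in Gzmk- cells. In the control pools it had 2.71 and 9.85 against 13.3 and 16.9, so it was lower in Gzmk+ cells in 4 of 4 pools. These Gzmk+ levels came from only 7 and 7 UMIs in the Runx1::Runx1t1 pools and 1 and 6 in the control pools. That of control replicate 1 was below the 8.13 CPM that 3 counts would give. The log2 fold change was -2.09 ± 0.34 (edgeR adjusted p = 0.00227) by Gzmk and -1.71 ± 0.30 (edgeR adjusted p = 0.00466) by Pdcd1. In Pdcd1+ Gzmk+ Cd4 T cells of the Runx1::Runx1t1 pools 0 and 5 UMIs of Tmem273 were counted. Both calls were lost when Cd4 T cells needed 2 UMIs of Cd4, at adjusted p = 0.0609 by Gzmk and 0.238 by Pdcd1. In Cd8 T cells the level had been highest in the corresponding class, and the difference between the lineages was not tested.

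**Figure D4:**
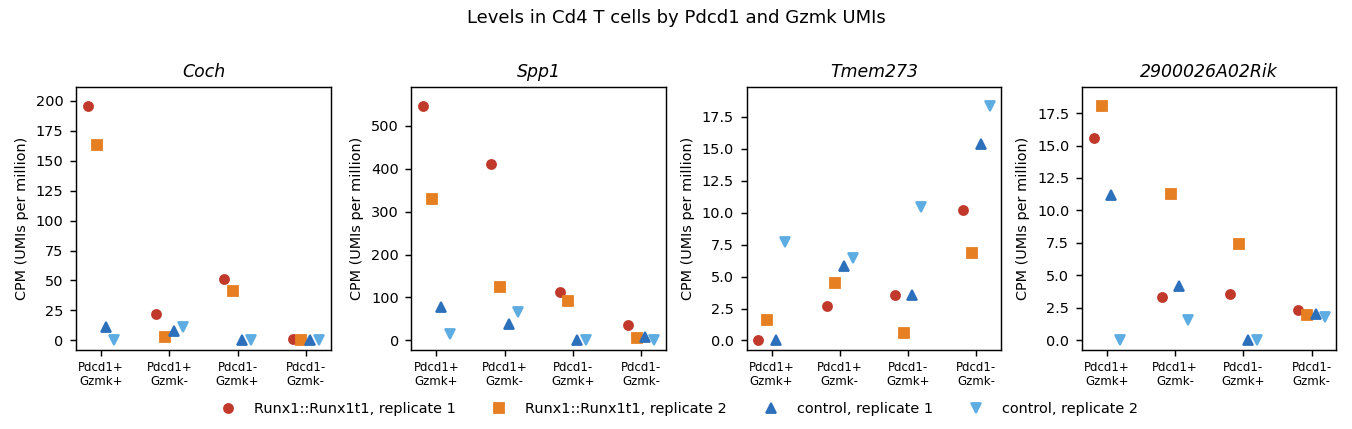
Level of the 4 genes with enough UMIs for a test (CPM, linear axes that differ between panels) in Cd4 T cells split by a UMI of Pdcd1 and of Gzmk, with 1 point per pool. Coch is at 195 and 163 CPM in Pdcd1+ Gzmk+ cells of the Runx1::Runx1t1 pools, while Tmem273 is highest in cells with neither gene in each of the 4 pools.

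Cells outside the Cd8 and Cd4 gates were counted too, without a test. In T cells without a UMI of Cd4, Cd8a or Cd8b1, 4 of the 8 genes had a higher level in both Runx1::Runx1t1 pools than in both control pools, as did 36.4% of the 12947 genes. In T cells with UMIs of both Cd4 and Cd8a or Cd8b1 it was 6 of 8, against 26.6% of these genes, and in cells without a UMI of a Cd3 gene 2 of 8, against 26.5%. Coch and 2900026A02Rik were among them in each of these 3 gates, and Pax9 in none.

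The relatives and partners of the 8 genes were looked at from fixed lists. Of the other genes of the Spp1 family, which encode bone and tooth matrix proteins, Ibsp had 3 and Dmp1 1 UMI in all Cd8 T cells and Dspp and Mepe had 0, against 1409 UMIs of Spp1. Of the genes for matrix proteins with domains like those of Coch, Matn2 had 65 UMIs there and Vit, Matn1, Matn3 and Matn4 at most 8, against 2523 of Coch. Of the osteopontin receptor genes, 7 of 8 were tested in Cd4 T cells. The integrin gene Itga4 was higher in Gzmk+ (log2 fold change 0.64, edgeR adjusted p = 0.000334) and in Pdcd1+ Cd4 T cells (0.35, adjusted p = 0.00564). Itgav was higher in Pdcd1+ cells (0.76, adjusted p = 0.000347) but lower in Gzmk+ cells (-0.39, adjusted p = 0.037). Itgb3 was lower in both, with -1.54 in Gzmk+ cells (adjusted p = 0.00206) and -0.90 in Pdcd1+ cells (adjusted p = 0.00698). Itgav was the one receptor gene of the 7 that passed between the groups (0.68, adjusted p = 0.0356). In Cd8 T cells Itga4 had 431 and 477 CPM in Pdcd1+ Gzmk+ cells and 98.3 and 80.2 in cells with neither gene, and Cd44 had 61.8 and 39.1 against 62.5 and 63.8.

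Among the 12 type II transmembrane serine protease genes, St14 had the next highest level after Tmprss6, at 17.2 and 26.8 CPM in Pdcd1+ Gzmk+ Cd8 T cells and 1.45 and 1.98 in cells with neither gene. In Cd4 T cells St14 passed by Pdcd1 (log2 fold change 0.76, edgeR adjusted p = 0.0367), 1 of the 3 tested, and none passed by Gzmk or between the groups. Of the 9 hepcidin pathway genes, 3 were tested in Cd4 T cells and Smad1 alone passed, lower in Gzmk+ cells (log2 fold change -0.995, edgeR adjusted p = 0.0112). Of the mannose receptor family, Ly75 was the one tested gene and was higher in Gzmk+ (0.58, adjusted p = 0.0124) and Pdcd1+ Cd4 T cells (0.55, adjusted p = 0.00525). Other lens fibre genes had at most 50 UMIs in all Cd8 T cells, and the other Pax genes at most 12. Of the gene relatives of Lim2 by protein family, Nkg7 was higher in Gzmk+ Cd4 T cells (log2 fold change 2.19, edgeR adjusted p = 0.000616) and between the groups (1.46, adjusted p = 0.00366).

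The genes with the most similar pattern were searched over 30 sums of pool, lineage and class among 12344 genes, by Pearson's r of log2(CPM + 1). These sums share libraries, and r is a description. Coch was closest to Rasd2 (0.913), and Ociad2 was also among its nearest genes (0.889). Tmprss6 was closest to the receptor genes Cd200r2 (0.944) and Glp1r (0.940). Glp1r had 50.2 CPM in Pdcd1+ Gzmk+ Cd8 T cells as a mean over the Runx1::Runx1t1 pools and 0.227 in cells with neither gene. Mrc2 was closest to Fcrl6 (0.9499), and 2900026A02Rik shared its closest gene Sept4 (0.904) with the list of Tmprss6 (0.876). Spp1 was closest to Ttbk1 (0.892) and Lim2 to Gcsam (0.876). Tmem273 had the lowest likeness of the 8, with Ppm1b at 0.754, and Pax9 followed with Actr5 at 0.836. Of the neighbours, Il2rb beside Tmprss6 had 903 and 1235 CPM in Pdcd1+ Gzmk+ Cd8 T cells and 417 and 361 in cells with neither gene, and Kctd17 had 12.4 and 16.3 against 2.48 and 2.56.

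RefSeq promoter windows of 300 bases (GRCm38.p6, from 250 bases before to 50 after a start) were on hand for 6 of the 8 genes, not for Tmprss6 and Mrc2. They were searched on both strands for TGTGGT, the letters of a RUNX site. The letters were found in Coch, Lim2 and the first of 2 Spp1 windows, which is 3 of 8 windows, and 16.8% of 32851 promoter windows hold them. GGAAAA, the letters of an NFAT site, was found in Coch and in the second Spp1 window and in 23.4% of all windows. TGANTCA (AP-1), AAAGGTCA (NBRE) and AGGTGTGA (T-box) were not found in the 8 windows and were in 7.81%, 1.51% and 1.28% of all windows. A match describes the letters only. The windows with TGTGGT are shown with all matches in capitals, where ACCACA is TGTGGT and TTTTCC is GGAAAA on the other strand.
Coch, chr12:51593091-51593390, plus strand: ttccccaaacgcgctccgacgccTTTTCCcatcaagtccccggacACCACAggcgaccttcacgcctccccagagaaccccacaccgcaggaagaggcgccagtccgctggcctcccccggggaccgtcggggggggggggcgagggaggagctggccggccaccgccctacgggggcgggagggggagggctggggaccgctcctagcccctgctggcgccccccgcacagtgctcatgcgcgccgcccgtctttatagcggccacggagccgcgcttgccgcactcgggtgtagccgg
Spp1, chr5:104434861-104435160, plus strand: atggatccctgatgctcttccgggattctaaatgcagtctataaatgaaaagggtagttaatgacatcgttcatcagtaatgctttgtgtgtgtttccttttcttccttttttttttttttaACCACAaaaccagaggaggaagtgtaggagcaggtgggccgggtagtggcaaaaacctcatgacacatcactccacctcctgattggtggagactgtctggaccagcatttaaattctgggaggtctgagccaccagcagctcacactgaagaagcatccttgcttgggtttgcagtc
Lim2, chr7:43429849-43430148, plus strand: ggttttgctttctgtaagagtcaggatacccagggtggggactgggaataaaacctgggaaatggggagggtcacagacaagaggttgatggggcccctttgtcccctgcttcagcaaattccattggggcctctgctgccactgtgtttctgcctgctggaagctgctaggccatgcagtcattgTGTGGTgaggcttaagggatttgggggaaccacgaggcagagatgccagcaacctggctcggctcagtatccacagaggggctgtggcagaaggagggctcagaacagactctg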

How the data were processed

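Bone marrow T cells were profiled with 10x 5′ chemistry, with 1 gene expression and 1 TCR library for each of 4 pools. The authors made the deposited UMI count matrices and contig tables with Cell Ranger 6.1.2 on GRCm38, per the labels and the study's methods; the annotation release is not given in the sources used here. Counts were used as deposited. Barcodes were kept at 200 genes or more with mitochondrial UMIs of 15% or less, and doublets were called per library with Scrublet in scanpy 1.11.5 (expected rate 0.05; in the 3 libraries where the automatic threshold marked under 0.5%, the 5% with the highest scores were removed). Gates needed 1 UMI, and levels are CPM (UMIs per 1000000 of the summed cells). A clonotype shared the pool and the nucleotide CDR3 of the TRA and TRB contig with most UMIs. UMIs were summed per pool and class, and sums of at least 20 cells in Cd4 T cells were tested with edgeR 4.0.16 (TMM, filterByExpr, quasi-likelihood test, two-sided, Benjamini-Hochberg adjustment). The fits were tested on simulated data. DESeq2 1.42.0, other gates and filters, and each pool left out in turn were alternatives. The 8 genes, the gene lists and the rule for similar and neighbouring genes were chosen with earlier results of these data known. Positions came from the GENCODE annotation of GRCm38. Leaving out clonotypes that share a CDR3 was chosen after seeing the data. A gene returned by the rule for similar genes and a background gate are not reported here.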

Additional observations from a re-analysis of the deposited data

Results flagged for a closer look

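Cells of gates that entered none of the comparisons also held some of these genes at a higher level in both Runx1::Runx1t1 pools than in both control pools, without a test. In T cells without a UMI of Cd4, Cd8a or Cd8b1, the mean over the Runx1::Runx1t1 pools was 3.53 CPM for Coch (3.13 and 3.92, against 0 and 0.0729 in the control pools), 5.07 for Spp1, 0.549 for Tmprss6 and 5.97 for 2900026A02Rik. For Coch and Spp1 these levels were below those of Cd8 T cells of the same pools. In the 591 and 750 T cells of the Runx1::Runx1t1 pools with UMIs of both Cd4 and Cd8a or Cd8b1, the mean was 32.2 CPM for Coch, 76.4 for Spp1, 3.83 for Mrc2, 0.934 for Lim2, 6.22 for Tmem273 and 10.8 for 2900026A02Rik. In cells without a UMI of a Cd3 gene it was 1.90 CPM for Coch and 27.4 for 2900026A02Rik. There 2900026A02Rik had 25.5 and 29.3 CPM, and 2.50 and 13.3 in the control pools. Its Cd8 T cell levels were 5.38 and 30.6 CPM, and 0.991 and 1.45 in the control pools. They were lower than in cells without a Cd3 UMI in all pools but Runx1::Runx1t1 replicate 2. Other genes had a lower mean in the Runx1::Runx1t1 pools. In cells without a Cd3 UMI Spp1 had 8.59 and 3.72 CPM in the Runx1::Runx1t1 pools and 24.0 and 7.33 in the control pools, which overlapped, and Tmem273 had 3.97 and 5.37 against 9.26 and 14.7. Pax9 had 0.192 and 0.861 CPM against 1.07 and 1.12 in T cells with UMIs of both Cd4 and Cd8a or Cd8b1. These Pax9 levels came from only 1 and 6 UMIs against 2 and 2, and their exact Poisson intervals overlapped. In T cells without a UMI of Cd4, Cd8a or Cd8b1 the Tmem273 levels also overlapped, at 10.3 and 8.34 against 9.71 and 11.5 CPM.

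The group difference of Tmem273 had opposite directions in the lineages. The mean level in Runx1::Runx1t1 pools minus that in control pools was 7.02 CPM in Cd8 T cells and -8.74 CPM in Cd4 T cells. Cd8 T cells of Runx1::Runx1t1 replicate 1 had 1.51 CPM, close to the 1.25 of control replicate 2. Those of Runx1::Runx1t1 replicate 2 had 14.5. Clonotype 1 of Runx1::Runx1t1 replicate 1 alone held 42 Tmem273 UMIs. With each clonotype counted once the Cd8 difference was -0.291 CPM, so the directions were then no longer opposite. The difference between the lineages was not tested. Of the Tmem273 UMIs of all Cd8 T cells, 60.3% came from the largest clonotype.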

How the results depend on the processing

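The counts of genes passing in Cd4 T cells moved by over 1.5 times under some settings. By Gzmk, 1601 genes became 912 with DESeq2 and 481 to 1932 without 1 pool. By Pdcd1, 1426 became 838 with DESeq2, 936 when Cd4 T cells needed 2 UMIs of Cd4, 582 without the pool block and 692 to 1195 without 1 pool. Between the groups, 246 became 160 with cells that had both TCR chains only, 409 with the replicate number as a block and 84 to 301 without 1 pool. The low counts came without Runx1::Runx1t1 replicate 1 (481, 692 and 120) and without replicate 2 (499, 752 and 84). Between the groups, the replicate block changed no call of the 8 genes. The replicate numbers paired no animals, and deviations of same-numbered pools from their group means had r = 0.205 over 11618 genes. Without TMM the share of passing genes that were higher was 65.7% in place of 45.5% by Pdcd1 and 54.4% in place of 65.4% between the groups. By Gzmk, the Spp1 call was lost without the pool block (adjusted p = 0.0998). With each clonotype counted once, the Cd8 difference of Tmem273 between the groups turned from 7.02 to -0.291 CPM, and that of Coch went from 21.8 to 3.24. The counts of 8 genes in the description of Cd8 T cells stayed between 6 and 8, with 6 highest in Pdcd1+ Gzmk+ cells after thinning to 2000 UMIs. Causes were not tested. Depth limits Pax9 and Lim2, with 49 and 116 UMIs in all Cd8 T cells.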
